A study of Mus musculus with 6 samples.

Results

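The nuclear genes of the mitochondrial respiratory chain and ATP synthase were compared between calf muscle of integrin alpha7 transgenic mice and of wild type mice. Which genes are members follows from their symbols, not from their values. A gene belonged where a probe set naming only that gene had a symbol of the families Nduf (complex I, assembly factors left out), Sdh (complex II), Uqcr (complex III), Cox4 to Cox8 (complex IV) or Atp5 (complex V). These symbols gave 82 genes of 18193 on the array, namely 36 of complex I, 4 of complex II, 8 of complex III, 17 of complex IV and 17 of complex V. They were read by 169 probe sets, and each gene was represented by its brightest probe set, the mean signal over all 6 arrays deciding. Of the 82 genes, 80 passed the filter on dim probe sets described under the processing. Ndufb4 and Cox7b2 did not, at 34.2 or less and at 12.9 or less on every array. For Ndufb4, a complex I accessory subunit, 2 brighter probe sets at 5062 to 7249 also name Ndufb4b and Ndufb4c and were therefore left out.

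The animals were female mice aged 5 weeks on an SJ6/C57BL6 background, not fasted. The labels describe the wild type mice as controls for the transgenic mice. The titles of their arrays also include the word Intronic, which the labels do not explain, so whether these controls were bred with the transgenic line is not known. The transgenic mice overexpress integrin alpha7, which pairs with integrin beta1 on muscle fibres to bind laminin outside the cell. RNA from gastrocnemius and soleus of 6 animals was pooled for an Affymetrix array, with 3 such pools (18 animals) for wild type and 3 (18 animals) for transgenic. The labels give neither the promoter of the transgene nor the number of founder lines. The wild type pools had an Itga7 signal of 292 ± 32.7 (SD, n = 3), and the transgenic pools had 2238 ± 228 (SD, n = 3).

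The respiratory chain passes electrons from NADH (complex I) and succinate (complex II) through coenzyme Q to complex III, cytochrome c and complex IV, where oxygen is reduced. Complexes I, III and IV pump protons across the inner mitochondrial membrane, and complex V lets them flow back through a rotating ring to make ATP. Skeletal muscle is rich in these complexes, oxidative fibres more than glycolytic ones, and several small complex IV subunits have a form of their own in heart and skeletal muscle. The mitochondrial genome encodes some of the catalytic subunits. These were not analysed here, and every member is encoded in the nucleus.

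No member passed the adjusted threshold of 0.05 in limma's moderated test, against 0.122% of all 27022 probe sets tested (33 probe sets). The smallest adjusted p was 0.136, for Uqcrc2. At an unadjusted p under 0.05 there were 12 members lower in transgenic muscle and 0 higher, where 4.34% of all probe sets were lower and 3.51% higher by the same rule. The 3 transgenic arrays all lay below the 3 wild type arrays in 22 of the 80 members, or 27.5%, against 7.5% of all probe sets. They all lay above in 2 members, Ndufa7 and Atp5g2, or 2.5%, against 5.85% of all probe sets. These separations depended on the scaling: with equal array medians 2 members separated with transgenic lower (4.45% of all probe sets) and 4 with transgenic higher (8.71%), and with quantile normalization 8 and 4 did (6.73% and 6.51%). The fit as deposited gave a negative difference for 61 members, or 76.25%, against 52.6% of all probe sets. It gave a positive difference for 19.

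The differences were small. The median over the 80 members was -0.05 on the log2(signal + 16) scale, transgenic minus wild type, beside -0.01 over all probe sets tested. With array medians made equal it was 0.000137 with 40 members negative, beside 0.04 over all probe sets tested. The members' median thus lay below that of all probe sets under both scalings. The array medians made equal were signals of 34.0 to 38.4, while the members had a median signal of 6673. With quantile normalization the members' median was -0.02 with 47 negative. The fitted difference was within 10% of the wild type level in 73 members, more than 10% lower in 5 and more than 10% higher in 2. The spread within a genotype was also small, with a median SD of 0.062 over the members and 0.190 over all probe sets on the same scale. The half-width of the 95% interval had a median of 0.12 over the members and 0.37 over all probe sets, and for 76 of 80 members the interval lay wholly within 0.5 of 0 in either direction. In bulk muscle, fewer cells of a type and less RNA per cell cannot be told apart.

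**Figure D1:**
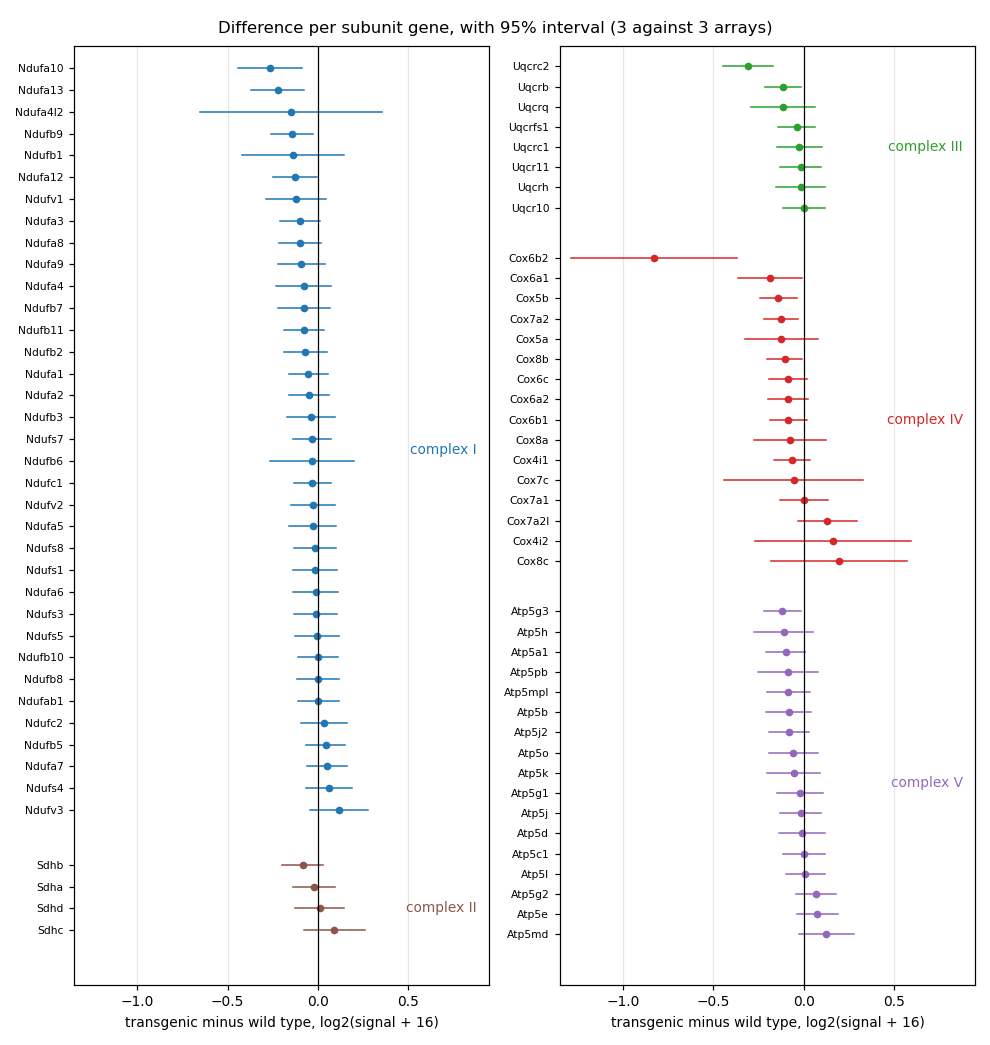
Difference of each of the 80 tested subunit genes between transgenic and wild type muscle, in log2(signal + 16), as points with the 95% interval from limma's fit of 3 against 3 arrays. Complexes I and II are on the left and III to V on the right. Most points lie left of 0 (61 of 80, or 76.25%, against 52.6% of all tested probe sets). With equal array medians 40 of 80 do. Uqcrc2 at -0.31 and Cox6b2 at -0.83 lie farthest from 0 relative to their intervals. With equal array medians the median over all tested probe sets was 0.04.

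Complex I takes electrons from NADH. Of its 35 tested members 28, or 80%, had a negative difference, against 52.6% of all probe sets. The median was -0.03. With equal array medians the median turned to 0.02, beside 0.04 over all probe sets tested. As deposited, 9 members, or 25.7%, had all transgenic arrays below all wild type arrays, against 7.5% of all probe sets. The 6 catalytic core subunits measured here, Ndufs1, Ndufs3, Ndufs7, Ndufs8, Ndufv1 and Ndufv2, hold the flavin and iron-sulphur centres. Their differences ran from -0.12 (Ndufv1) to -0.01 (Ndufs3), with a median of -0.02, and in none did the genotypes separate on the brightest probe set. Dimmer probe sets of these genes disagreed. For Ndufv1, which binds NADH, a dimmer probe set read 2298, 2312 and 2390 in wild type and 3159, 2639 and 2542 in transgenic pools, all above wild type, a difference of 0.24 (SE 0.08, limma adjusted p = 0.448). The last of its probe sets also separated with transgenic higher, at 0.33 (SE 0.10, limma adjusted p = 0.421), so the direction of Ndufv1 depends on the probe set. A dimmer probe set of Ndufv2 gave -0.18 (SE 0.08, limma adjusted p = 0.619) and that of Ndufs7 -0.05, both separating with transgenic lower. On their brightest probe sets, the complex I members that separated were all among the 29 accessory subunits, which surround the core.

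Among the accessory subunits, Ndufa10 read 8533, 7775 and 7672 on the wild type arrays and 7568, 6551 and 5937 on the transgenic arrays. All transgenic values were below all wild type values, by a narrow margin between transgenic pool 1 and wild type pool 3. The difference was -0.26 (SE 0.08, limma adjusted p = 0.411). A dimmer probe set of Ndufa10 read 176, 173 and 158 in wild type and 196, 174 and 229 in transgenic pools, a difference of 0.22 in the opposite direction. Its range overlapped between genotypes.

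Ndufa13, also known as GRIM-19, is an accessory subunit needed for complex I assembly. It read 12470, 11732 and 11114 in wild type and 10246, 9162 and 10894 in transgenic pools, a difference of -0.22 (SE 0.07, limma adjusted p = 0.400). The genotypes did not overlap, but the gap between wild type pool 3 and transgenic pool 3 was small. No other kept probe set named Ndufa13 alone.

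Ndufb9, an accessory subunit of the membrane arm, read 10607, 10884 and 11150 in wild type and 10524, 9611 and 9452 in transgenic pools. The difference was -0.14 (SE 0.05, limma adjusted p = 0.545), and the lowest wild type and highest transgenic values nearly met. A second Ndufb9 probe set of like signal gave 0.03, with genotypes that overlapped. Ndufa12 read 10354, 10276 and 10355 in wild type and 9953, 9685 and 8771 in transgenic pools, a difference of -0.13 (SE 0.06, limma adjusted p = 0.612). Its other kept probe sets gave -0.10, 0.01 and 0.16, and only the first of these separated the genotypes. Both Ndufa12 probe sets that separated carry the suffix x, for probes that can also bind related sequences.

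On the positive side, Ndufv3, a small subunit beside the flavin site, read 4307, 5233 and 5038 in wild type and 5074, 5222 and 5457 in transgenic pools. These ranges overlapped, and the difference was 0.12 (SE 0.07, limma adjusted p = 0.749). Ndufs4, a late-assembled subunit whose loss causes a Leigh-like disease in mice, gave 0.06 (SE 0.06, limma adjusted p = 0.835), and its other kept probe sets gave -0.12 and -0.14. Ndufa7 read 4687, 4632 and 4791 in wild type and 4926, 4887 and 4822 in transgenic pools, all above wild type, for a difference of 0.05. The 4 other kept probe sets of Ndufa7, an accessory subunit, gave 0.04 to 0.15, and a pair of them also separated the genotypes. Ndufc2, a membrane arm subunit, gave 0.04 on its brightest probe set with overlap and 0.24 (SE 0.06, limma adjusted p = 0.292) on a dimmer probe set whose genotypes separated. Ndufa4 is counted here by its symbol, although structural work places its protein in complex IV, and it gave -0.08 (SE 0.07).

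Complex II, succinate dehydrogenase, is also an enzyme of the tricarboxylic acid cycle. Its 4 members gave -0.08 (Sdhb, the iron-sulphur subunit), -0.02 (Sdha, the flavoprotein), 0.01 (Sdhd) and 0.09 (Sdhc), the last pair being the membrane anchors. Their median was -0.01, and 0.05 with equal array medians, beside 0.04 over all probe sets tested in that setting. None passed the test, with limma adjusted p from 0.747 for Sdhb upwards. Sdhb read 12231, 11291 and 12222 in wild type and 11733, 11047 and 10940 in transgenic pools. Sdhc read 2709, 2795 and 3294 in wild type and 3149, 2976 and 3226 in transgenic pools. Both sets of values overlapped, and none of the 4 genes separated the genotypes.

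Complex III passes electrons from coenzyme Q to cytochrome c. Of 8 members, 7, or 87.5%, had a negative difference as deposited, against 52.6% of all probe sets (3 of 8 with equal array medians). The median was -0.03 as deposited. With equal array medians the median was 0.02, beside 0.04 over all probe sets tested. Uqcrc2, a large core subunit on the matrix side, differed most of all members relative to its error. It read 7481, 6907 and 6452 in wild type and 5851, 5510 and 5454 in transgenic pools. All transgenic pools lay below all wild type pools. The difference was -0.31 (SE 0.06), which is -19.2%, and it missed the threshold with a limma adjusted p of 0.136.

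The second probe set of Uqcrc2 read 5257, 5540 and 4897 in wild type and 4827, 4575 and 3929 in transgenic pools. It also separated the genotypes, with a difference of -0.24 and a limma adjusted p of 0.450. Over 18 alternative settings the difference of Uqcrc2 ranged from -0.36 to -0.25, and the adjusted p from 0.0137 to 0.621. The lowest of these p-values came from a block for the fluidics module, described below. In the first hybridisation round the difference was -0.34, and in the second, a comparison of 1 pool per genotype with no test, it was -0.24.

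The partner core subunit Uqcrc1 gave -0.02 (SE 0.06), and Uqcrfs1, the Rieske iron-sulphur protein that carries electrons onward, gave -0.04 (SE 0.05). Neither separated the genotypes. Uqcrb, a small subunit near the quinone site, was the brightest member at 20104, 20786 and 20243 in wild type and 19495, 19032 and 17936 in transgenic pools. Its difference was -0.12 (SE 0.05, limma adjusted p = 0.580) as deposited and 0.02 with quantile normalization. Its second probe set gave -0.01. Uqcrq read 6498, 5921 and 6394 in wild type and 6465, 5891 and 5092 in transgenic pools, with the gap made by transgenic pool 3.

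Uqcr10, a small subunit, gave 0.00 on its brightest probe set. Its dimmer probe sets read otherwise. The first read 1117, 833 and 913 in wild type and 1580, 1067 and 1312 in transgenic pools, a difference of 0.45 (SE 0.14, limma adjusted p = 0.389), and the other gave 0.60 (SE 0.26, limma adjusted p = 0.614). Both overlapped between genotypes, so the probe sets of Uqcr10 disagree.

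Complex IV, cytochrome c oxidase, reduces oxygen. It had the lowest median of the complexes, -0.08. With equal array medians its median was -0.03, beside 0.04 over all probe sets tested. As deposited, 12 of 16 tested members, or 75%, were negative, against 52.6% of all probe sets. In 8 members, or 50%, all transgenic arrays lay below all wild type arrays, against 7.5% of all probe sets. Of these 8, all but Cox6b2 had a mean signal over 10000, a range where 38.5% of the probe sets of no member gene separated the same way. As given above, most separations of members were lost with equal array medians or quantile normalization. With quantile normalization the median was -0.02, as it was for complexes I and V. Whether the complexes differ from each other was not tested.

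Cox5b, a subunit on the matrix side, read 14642, 15561 and 15545 in wild type and 13977, 14073 and 13450 in transgenic pools. The genotypes did not overlap, and the difference was -0.14 (SE 0.05, limma adjusted p = 0.467). Of its other kept probe sets, a pair also separated the genotypes, at -0.13 and -0.06, while another gave -0.02 and a dim probe set 0.24. The separating probe sets carry the suffix x, which marks probes that can also bind related sequences. Probe sets of the same gene read the same pools and are not replicates.

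Several subunits of complex IV exist as paired isoforms, with a form of heart and skeletal muscle and a form of most tissues. The muscle forms Cox6a2, Cox7a1 and Cox8b gave -0.08, 0.00 and -0.10, and the widespread forms Cox6a1, Cox7a2 and Cox8a gave -0.19, -0.12 and -0.07. Cox8b read 13702, 13822 and 13980 in wild type and 13038, 12528 and 13041 in transgenic pools, without overlap (SE 0.04, limma adjusted p = 0.605). Cox6a2 read 11085, 10578 and 10714 in wild type and 10414, 10469 and 9667 in transgenic pools, also without overlap (SE 0.05, limma adjusted p = 0.738). The muscle form Cox7a1 overlapped, at 5911 to 6556 in wild type and 5990 to 6649 in transgenic pools.

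Of the widespread forms, Cox7a2 read 14352, 14473 and 14198 in wild type and 13326, 13096 and 13053 in transgenic pools. The genotypes were apart on every array, and the difference was -0.12 (SE 0.04, limma adjusted p = 0.496). The second Cox7a2 probe set gave 0.02 and overlapped. Cox6a1 read 4246, 4742 and 4148 in wild type and 4224, 3428 and 3901 in transgenic pools, a difference of -0.19 (SE 0.08, limma adjusted p = 0.610) with overlap. Its second probe set gave -0.00. Cox8a read 821 to 959 in wild type and 777 to 906 in transgenic pools. Cox7a2l, a related protein that joins complexes III and IV into supercomplexes, gave 0.13 (SE 0.08, limma adjusted p = 0.723) with overlap. Its other kept probe sets both gave 0.09. The brighter of these read 1779, 1738 and 1745 in wild type and 1848, 1859 and 1892 in transgenic pools, all above wild type (limma adjusted p = 0.771).

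The promoters of Cox6a1, a widespread form, and Cox8b, a muscle form, are printed as examples of the upstream sequences of such genes. They encode forms of different subunits and are not isoforms of each other. Both stretches are the 250 bases before the gene start, 5′ to 3′ on the gene's own strand, from RefSeq on GRCm38.p6. Cox6a1 lies on chr5:115348959-115349208 (minus strand) and Cox8b on chr7:140900447-140900696 (minus strand). Capitals mark matches to NRF1 (GCGCANGCG) and GABPA (CCGGAAG), factors known for controlling respiratory genes, on either strand.
Cox6a1: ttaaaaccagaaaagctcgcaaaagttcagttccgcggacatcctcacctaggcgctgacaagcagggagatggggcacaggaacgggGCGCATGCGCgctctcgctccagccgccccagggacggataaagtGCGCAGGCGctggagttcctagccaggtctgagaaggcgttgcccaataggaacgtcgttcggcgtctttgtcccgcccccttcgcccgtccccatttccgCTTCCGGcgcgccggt
Cox8b: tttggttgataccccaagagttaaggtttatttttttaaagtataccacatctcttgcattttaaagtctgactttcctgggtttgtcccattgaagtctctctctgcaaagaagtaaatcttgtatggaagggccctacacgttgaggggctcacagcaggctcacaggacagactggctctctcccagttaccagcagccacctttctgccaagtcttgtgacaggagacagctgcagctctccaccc
In Cox6a1, overlapping NRF1 matches on both strands lie 162 and 161 bases before the start, another lies 117 bases before, and a GABPA match on the opposite strand lies 16 bases before. Cox8b holds none of the motifs searched. In the longer window described below, the muscle form Cox7a1 and the widespread form Cox7a2 hold none either, while the widespread form Cox8a holds GABPA matches. A match is a description of letters and not a binding site.

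The remaining isoform pairs include Cox4i1, the usual regulatory subunit, at -0.07 (SE 0.05), and its lung form Cox4i2 at 0.16 (SE 0.20). Cox4i1 separated the genotypes as deposited and turned to 0.01 with quantile normalization. Cox6b1, which sits where the monomers of the enzyme meet, read 15208, 15365 and 15254 in wild type and 14915, 14532 and 13803 in transgenic pools, a difference of -0.08, or 0.01 with quantile normalization. Its testis form Cox6b2 was dim, at 54.9, 50.5 and 63.6 in wild type and 19.8, 26.1 and 28.5 in transgenic pools. The pools of Cox6b2 did not overlap, and the difference was the largest of all members in size, -0.83 (SE 0.21, limma adjusted p = 0.289).

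At so low a signal the offset sets the size of the difference of Cox6b2, which was -1.16 with an offset of 1 and -0.44 with an offset of 64. The testis form Cox8c, at 115, 149 and 131 in wild type and 162, 189 and 114 in transgenic pools, gave 0.19 with overlap.

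**Figure D2:**
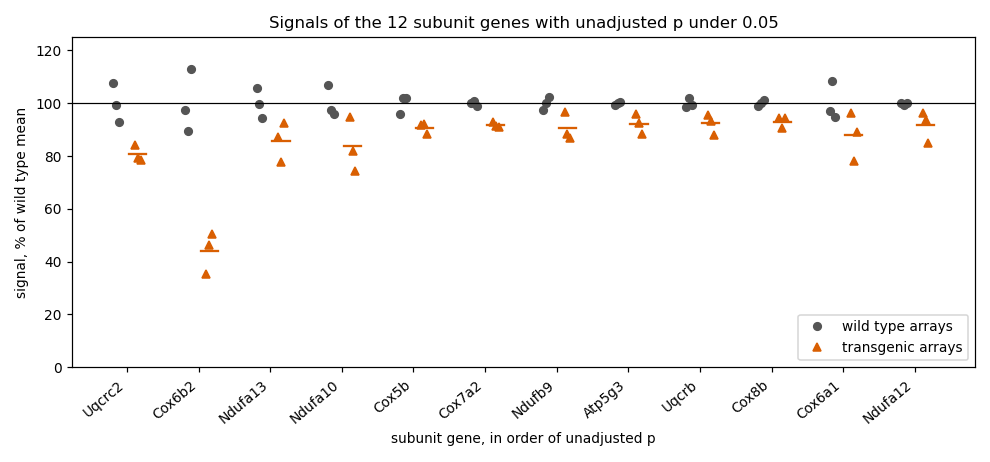
Signal on each array of the 12 members with an unadjusted p under 0.05, as a percentage of the wild type mean of that gene; circles are the 3 wild type and triangles the 3 transgenic arrays, and bars mark the transgenic mean. In 11 of the 12 genes the triangles lie wholly below the circles, the exception being Cox6a1. The genes were chosen by p-value on these same arrays, so such separation largely follows from the choice. Of the 11, 7 had a mean signal over 10000, where 38.5% of the probe sets of no member gene separated the same way, against 7.5% of all probe sets.

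Complex V, the ATP synthase, had 12 of 17 members negative as deposited, or 70.6%, against 52.6% of all probe sets. Its median was -0.06 as deposited. With equal array medians its median was -0.01, beside 0.04 over all probe sets tested. The catalytic F1 head was mixed. Atp5a1, its alpha subunit, read 12458, 12623 and 13281 in wild type and 12037, 11471 and 12287 in transgenic pools, all below wild type, with a difference of -0.10 (SE 0.05, limma adjusted p = 0.673). Its second probe set also separated with transgenic lower, at -0.15 (SE 0.05, limma adjusted p = 0.426). Atp5b, the catalytic beta subunit, gave -0.08 (SE 0.06), Atp5d gave -0.01, Atp5c1, the central shaft, gave 0.00 and Atp5e gave 0.07. All 4 overlapped between genotypes.

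The 4 peripheral stalk members, Atp5pb, Atp5h, Atp5j and Atp5o, hold the head still while the ring turns. Their differences ran from -0.11 (Atp5h) to -0.02 (Atp5j) with a median of -0.07, and on the brightest probe sets none separated the genotypes. A second Atp5h probe set did, at 7120, 7311 and 7396 in wild type and 7078, 6895 and 6834 in transgenic pools. Its difference was -0.07 (SE 0.05, limma adjusted p = 0.783). On the brightest probe sets, the median of the 4 stalk members was 0.00 in the first hybridisation round alone. Between the pools numbered 3 that median was -0.21. Atp5pb shows this pattern, at 10725, 11330 and 11576 in wild type and 11395, 11213 and 9207 in transgenic pools, where only transgenic pool 3 is low. Of the small membrane subunits, Atp5j2 read 11094, 11404 and 11451 in wild type and 11276, 10607 and 10234 in transgenic pools, a difference of -0.08 (SE 0.05, limma adjusted p = 0.746) with overlap. Its other kept probe sets gave -0.04 and, on a dim probe set at 148, 151 and 112 in wild type and 77.3, 98.9 and 80.0 in transgenic pools, -0.59 (SE 0.16, limma adjusted p = 0.305) without overlap. Atp5md, also a small membrane subunit, read 5325, 5431 and 5277 in wild type and 5427, 5588 and 6535 in transgenic pools, the largest positive difference of the complex at 0.13 (SE 0.07, limma adjusted p = 0.711).

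The ring of c subunits, through which protons pass, is encoded by 3 genes, Atp5g1, Atp5g2 and Atp5g3, whose mature proteins are identical and whose import signals differ. Atp5g3 read 13960, 14058 and 14075 in wild type and 13448, 12962 and 12401 in transgenic pools, all below wild type, with a difference of -0.12 (SE 0.05, limma adjusted p = 0.575). Atp5g2 read 4456, 4372 and 4445 in wild type and 4715, 4572 and 4635 in transgenic pools, all above wild type, with a difference of 0.07 (SE 0.05, limma adjusted p = 0.794). Atp5g1 overlapped, with a difference of -0.02 (SE 0.06), or 0.03 with equal array medians. The genes of this ring thus differed in direction within the same arrays, and whether their differences differ from each other was not tested.

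The promoters are printed because the same mature protein is made here from separate genes, each with an upstream sequence of its own. The stretches are again the 250 bases before each start, from RefSeq on GRCm38.p6, on the gene's own strand. Atp5g1 lies on chr11:96075632-96075881, Atp5g2 on chr15:102671048-102671297 and Atp5g3 on chr2:73911327-73911576, all on the minus strand. Capitals mark matches to NRF1 or to ERRA (AAGGTCA, the core letters of the estrogen-related receptors' site) on either strand.
Atp5g1: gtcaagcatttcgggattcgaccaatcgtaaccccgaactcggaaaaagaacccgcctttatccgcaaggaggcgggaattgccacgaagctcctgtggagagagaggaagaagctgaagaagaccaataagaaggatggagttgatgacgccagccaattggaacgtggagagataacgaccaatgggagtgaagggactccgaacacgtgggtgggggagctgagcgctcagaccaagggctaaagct
Atp5g2: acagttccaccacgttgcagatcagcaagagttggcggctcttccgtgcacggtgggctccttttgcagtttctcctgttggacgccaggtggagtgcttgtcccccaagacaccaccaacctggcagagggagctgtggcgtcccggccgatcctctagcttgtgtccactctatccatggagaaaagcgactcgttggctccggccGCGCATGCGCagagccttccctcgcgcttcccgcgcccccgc
Atp5g3: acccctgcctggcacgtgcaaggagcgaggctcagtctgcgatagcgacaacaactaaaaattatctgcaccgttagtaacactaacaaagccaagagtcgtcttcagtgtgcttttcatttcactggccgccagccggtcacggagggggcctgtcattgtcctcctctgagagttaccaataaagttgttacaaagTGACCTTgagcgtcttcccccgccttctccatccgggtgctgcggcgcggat
Atp5g1 holds no match to the 4 motifs searched. In Atp5g2, NRF1 matches on both strands overlap 42 and 41 bases before the start. In Atp5g3 an ERRA match on the opposite strand lies 52 bases before the start, and an NRF1 match lies past the start, outside the stretch printed.

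Across the family, RefSeq's table gave a promoter for 67 of the 82 genes, over a window of 300 bases (250 before and 50 after the start). NRF1 matches (GCGCANGCG) were in 26.9% of these genes, beside 7.03% of all 27025 genes with a promoter and 14.2% of the 10378 that also had a tested probe set. For GABPA (CCGGAAG) the shares were 25.4%, 9.93% and 18.4%, for ERRA (AAGGTCA) 11.9%, 5.38% and 4.01%, and for YY1 (AAGATGGC) 13.4%, 3.19% and 4.88%. Both strands were searched, and matches of different motifs were allowed to overlap. Members with an NRF1 match had a median difference of -0.02 over 17 genes and members without it -0.04 over 48.

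The level of signal moved with the differences. The 19 members with a mean signal over 10000 had a median of -0.09, 18 of them were negative, and 12, or 63.2%, had separate genotypes with transgenic lower. Of the 96 probe sets of no member gene in that range, the median was -0.08, 83 were negative and 37, or 38.5%, separated the same way. Above a signal of 12000, 9 of 10 members and 33 of 63 others separated. Between 4000 and 8000, the median was -0.02 for 36 members, of which 16.7% separated, and -0.01 for 287 others, of which 9.76% did. The highest signal of an array was 23547 to 23952 in wild type and 21386 to 22469 in transgenic pools. The part of this in the members' differences was not tested.

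The other kept probe sets of member genes, 76 in number and mostly dimmer, had a median of -0.00. A negative difference was found in 40, or 52.6%, against 52.6% of all probe sets. Of the 76, 12 separated with transgenic lower, or 15.8%, against 7.5% of all probe sets, and 6 with transgenic higher, or 7.89%, against 5.85%. At an unadjusted p under 0.05, 5 of the 76 were lower and 5 higher, where 4.34% of all probe sets were lower and 3.51% higher. For 33 of the 80 members there is only 1 kept probe set. The 9 kept probe sets that name several genes, a member's symbol among them, gave -0.43 to 0.06 with a median of -0.03.

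**Figure D3:**
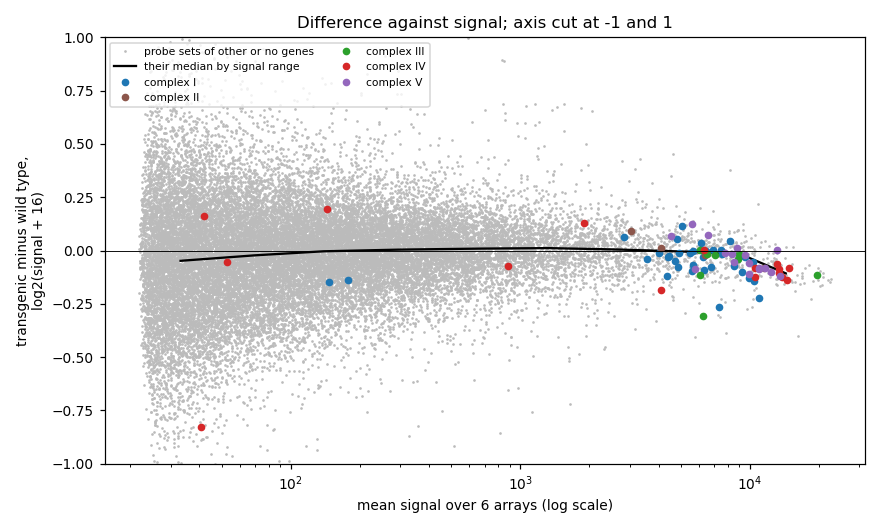
Difference between transgenic and wild type muscle in log2(signal + 16) against mean signal over the 6 arrays on a log scale, for the subunit genes in colour by complex and for the probe sets of other or no genes in grey, with a line for the median of the grey points by signal range. Values beyond -1 and 1 lie outside the frame. The grey line and the coloured points both bend below 0 at the bright end, where the medians over a signal of 10000 are -0.09 for members and -0.08 for the others.

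The pools did not contribute equally. The lowest of a member's 6 values was on transgenic pool 3 in 37 of 80 members and on transgenic pool 2 in 19, and the highest was on wild type pool 3 in 36. Over all probe sets tested, transgenic pool 3 was lowest in 22.5% and wild type pool 3 highest in 15.4%, beside 46.25% and 45.0% of the members. The median deviation of the members from the wild type mean was -0.03, 0.00 and 0.03 on wild type pools 1 to 3, and -0.01, -0.05 and -0.07 on transgenic pools 1 to 3. Both pools numbered 3 were hybridised in the second of the 2 rounds, and the other 4 in the first. Within round 1 the members' median was -0.02 with 48 of 80 negative, beside 14041 of all 27022 probe sets. Within round 2, 1 pool against 1 and therefore without a test, it was -0.11 with 68 negative, beside 14078 of all probe sets. Leaving out either of these pools gave a median of -0.03.

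By complex, the medians in round 1 were -0.03, 0.03, 0.00, -0.05 and 0.00 for complexes I to V. In round 2 they were -0.07, -0.08, -0.11, -0.13 and -0.11. Complexes I and IV were below 0 in both. The part of hybridisation in these values was not tested, since round 2 held 1 array per genotype. The fluidics modules held arrays of 1 genotype each, so a block for module cannot adjust the genotype difference. With the module as a random block, 2 members passed the threshold, Uqcrc2 with a limma adjusted p of 0.0137 and Cox6b2 with 0.0375, among 297 probe sets called. The block correlation was estimated at -0.44, and at a given variance a negative correlation lowers the error of the genotype means. This setting was added after the data were seen.

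**Figure D4:**
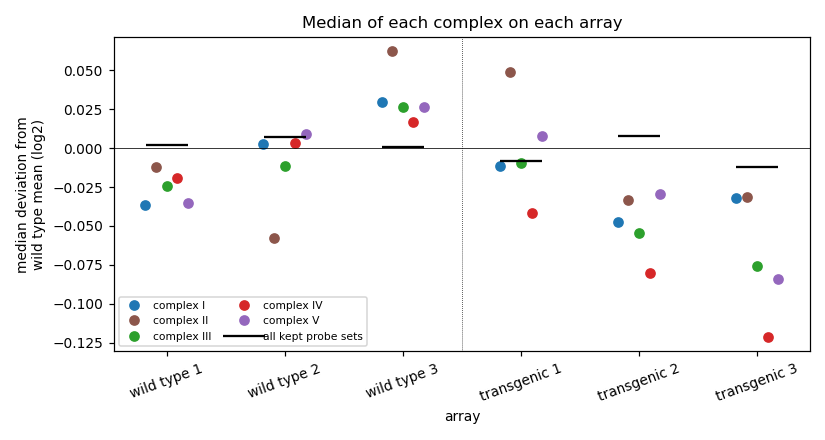
Median deviation from the wild type mean, in log2(signal + 16), of the members of each complex on each of the 6 arrays, with a black bar for the median over all tested probe sets. Complex IV lies lowest on transgenic arrays 1, 2 and 3, while complexes II and V lie above 0 on transgenic array 1, and all complexes lie above 0 on wild type array 3.

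The genes that work with these complexes were taken from 4 lists, and limma called none of their members at the adjusted threshold. Cytochrome c, Cycs, which carries electrons from complex III to IV, read 13600, 15030 and 14654 in wild type and 14394, 14765 and 11127 in transgenic pools, so that only transgenic pool 3 was low. Cyc1, the cytochrome subunit of complex III that the symbol rule leaves out, gave 0.02. Assembly factors build the complexes and are not part of them. Of 42 tested, 15, or 35.7%, were negative, against 52.6% of all probe sets, and 27 were positive, with a median of 0.03. At an unadjusted p under 0.05 there were 3 higher and 0 lower, where 3.51% of all probe sets were higher and 4.34% lower. In 7, or 16.7%, the genotypes separated with transgenic higher, against 5.85% of all probe sets. In 1, or 2.38%, they separated with transgenic lower, against 7.5%. Ndufaf2, a complex I assembly factor, read 163, 170 and 134 in wild type and 232, 218 and 216 in transgenic pools, all above wild type. Its difference was 0.48 (SE 0.12, limma adjusted p = 0.290). Cox16, which serves complex IV, gave 0.18 (SE 0.08, limma adjusted p = 0.607).

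Regulators of mitochondrial gene expression were negative in 8 (44.4%, against 52.6% of all probe sets) and positive in 10 of 18, with a median of 0.03. At an unadjusted p under 0.05 there were 0, where 4.34% of all probe sets were lower and 3.51% higher. Pprc1, a coactivator, read 202, 181 and 166 in wild type and 120, 197 and 115 in transgenic pools, and overlapped. Ppargc1a, the coactivator best known for raising oxidative capacity in muscle, read 377, 342 and 274 in wild type and 321, 269 and 229 in transgenic pools, a difference of -0.26 (SE 0.14, limma adjusted p = 0.705) with overlap. Carriers and coenzyme Q genes were negative in 11 (47.8%) and positive in 12 of 23. At an unadjusted p under 0.05, 1 was lower and 1 higher, beside the same 4.34% and 3.51% of all probe sets. Slc25a4, the muscle form of the carrier that exchanges ATP for ADP, read 18094, 17935 and 18122 in wild type and 16361, 16442 and 15995 in transgenic pools. It separated the genotypes, with a difference of -0.15 (SE 0.04, limma adjusted p = 0.336), at a signal above 12000. Coq10b, a coenzyme Q binding protein, gave 0.20 (SE 0.08, limma adjusted p = 0.580).

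By its markers the tissue was skeletal muscle, as labelled. The 10 skeletal muscle markers had mean signals of 14336 or more, and 9 of them had a negative difference. In 7, or 70%, the genotypes separated with transgenic lower, against 7.5% of all probe sets. Their summed signal was 198528 to 202945 in wild type and 182172 to 189271 in transgenic pools. Above a signal of 12000, 58 of the 63 probe sets of no member gene were negative and 33, or 52.4%, separated the same way. The part of signal level in the marker differences was not tested. The 8 slow fibre markers, which mark oxidative fibres, were negative in 4 and positive in 4, and summed to 36137 to 40636 in wild type and 32822 to 42830 in transgenic pools. Brown adipocytes are also rich in these complexes, and their 5 measured markers were negative in 3 and positive in 2, with a median of -0.01. Ucp1 averaged 1219 ± 163 (SD, n = 3) without and 1580 ± 155 (SD, n = 3) with the transgene (limma adjusted p = 0.327). It separated the genotypes with transgenic higher, as 1 of the 5, or 20%, against 5.85% of all probe sets. Of the others, Elovl3 gave 0.08, Cidea -0.01, Dio2 -0.13 and Ppargc1a -0.26. The summed brown adipocyte markers were 2650 to 2998 in wild type and 2935 to 3343 in transgenic pools. Endothelial markers were negative in 6 of 6 and summed to 1416 to 1579 in wild type and 1240 to 1361 in transgenic pools. In 3, or 50%, the genotypes separated with transgenic lower, against 7.5% of all probe sets. For macrophages, 5 of 6 markers were negative (3588 to 3913 against 3295 to 3510 summed), and for fibroblasts 4 of 5 (30204 to 31824 against 26500 to 30419). Of each of these, 1 separated the same way, or 16.7% and 20%. Over all probe sets 52.6% were negative. White adipocyte markers were negative in 2 and positive in 2 of 4 measured, and summed to 18249 to 19144 in wild type and 17688 to 19210 in transgenic pools. Of the erythroid markers only Alas2 was tested, at 0.07. The part of other cell types in the members' differences was not tested.

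**Figure D5:**
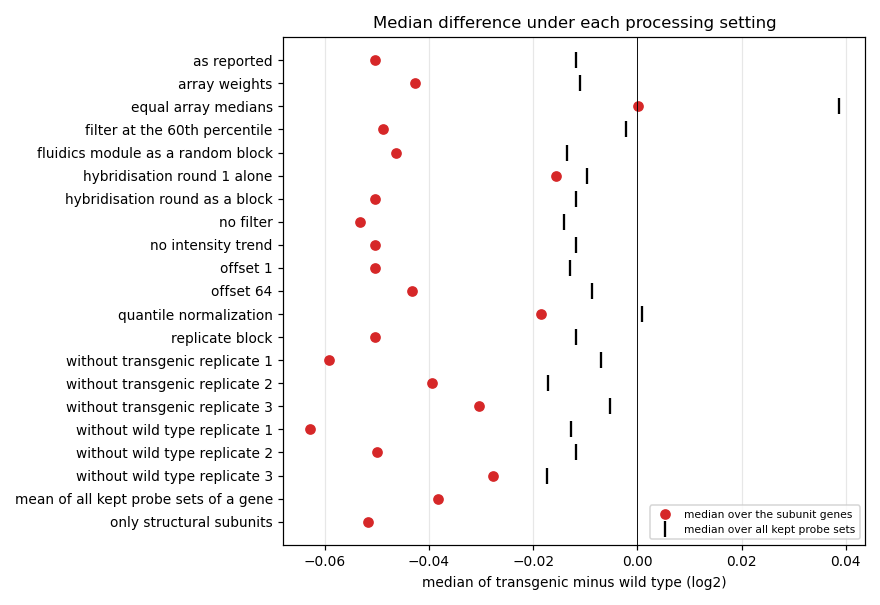
Median difference over the subunit genes (circles) and over all tested probe sets (bars), in log2, under the reported processing and each alternative. The circles lie between -0.06 and 0.00, and with equal array medians the circle reaches 0 while the bar moves to 0.04. The subunit genes lie below the median of all probe sets in every setting drawn for both, and the settings share the same arrays. Most probe sets are dimmer than the members, with a median signal of 101 against 6673. Over a signal of 10000 the medians under the reported processing were -0.09 for members and -0.08 for probe sets of no member gene.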

How the data were processed

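Transcripts were measured on 6 Affymetrix Mouse430_2 arrays, 3 pools of 6 animals per genotype, so p-values measure the spread between pools. The authors deposited a linear intensity for each probe set, from GCOS 1.1.1 according to the submitters' processing notes. The sources used here name no algorithm or scaling target. Trimmed by 2% at both ends, the mean of each array was 150.0, so arrays had been scaled to a common level, which would hide a change common to most genes. Of 45101 rows, 64 controls were left out. Values were analysed as log2(signal + 16), which understates changes of dim genes, and probe sets with a mean above the 40th percentile (signal about 21.7) were kept, 27022 in all. limma 3.58.1 in R 4.3.3 fitted genotype with an intensity trend and no covariates, two-sided, with Benjamini-Hochberg adjustment over all kept probe sets, and the code was tested on simulated data. The number of arrays limits the precision. Symbols came from the platform annotation, and all 82 member genes matched a RefSeq table (GRCm38.p6). Genes were described by complex and role: the 3 smallest p in each direction per complex, all of complex II, all members at an unadjusted p under 0.05, the isoform groups, and 2 genes of each list. Other subunits, given to complete a role, were named after their values were seen. Members and lists were chosen with earlier results of these data known. Same-numbered pools deviated with correlations of 0.003, 0.060 and 0.049, and differently numbered pools with -0.078 to 0.024. The numbers were not treated as pairs in the reported fit, and a block for them was fitted as an alternative. Hybridisation round and fluidics module came from the deposited run information files. Alternatives were other offsets, scalings and filters, no variance trend, weighted arrays, a block for replicate number, for round or for module, round 1 alone, leaving out each array, the mean of all probe sets of a gene, and structural subunits only.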

Additional observations from a re-analysis of the deposited data

How the results depend on the processing

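With 3 arrays per genotype, 0 members were called in all alternatives but the fluidics module as a random block (2 members and 297 probe sets called, against 33 as reported). Probe sets called numbered 50 with equal array medians, 17 with no filter, 1 with no intensity trend, 36 with the replicate block (0 members), and 18 to 39 on leaving out each array. The blocks for round and replicate changed no member's call. The module block and round 1 alone were chosen after seeing the data. The members' median was 0.000137 with equal array medians and -0.02 (-0.0156) in round 1 alone, and -0.06 to -0.03 on leaving out each array, lowest in size without wild type pool 3 (-0.0277) and transgenic pool 3 (-0.0304). With equal array medians complexes I, II, III and V gave 0.018, 0.045, 0.020 and -0.0056, and in round 1 alone complex V gave 0.0010. Over all probe sets tested the median was 0.039 with equal array medians. Leaving out each array gave -0.062 to -0.021 for complex I, -0.032 to 0.020 for II, -0.065 to -0.021 for III, -0.104 to -0.053 for IV and -0.072 to -0.020 for V. Members with separate genotypes numbered, lower and higher, 2 and 4 with equal array medians and 8 and 4 with quantile normalization; in round 1 alone, with fewer arrays to separate, they numbered 26 and 14 (20.3% and 17.9% of all probe sets), and leaving out each array gave 23 to 32 lower (12.3% to 13.6% of all) and 2 to 8 higher (10.2% to 11.4% of all). Of 628 values of the 35 named members under 18 alternatives, 604 kept direction and call, 2 passed the threshold (Uqcrc2 and Cox6b2, module block) and 22 changed sign, all without a call. Those were, with equal array medians, Atp5g1 (0.029) and Sdha (0.029); in round 1 alone, Sdha (0.023); with quantile normalization, Atp5g1 (0.017), Cox4i1 (0.0054), Cox6b1 (0.014), Sdha (0.0078) and Uqcrb (0.024); with array weights or the module block, Uqcr10 (-0.0085 and -0.00030). On leaving out each array the ranges were -0.021 to 0.032 for Uqcr10, -0.046 to 0.042 for Cox7a1, -0.017 to 0.054 for Sdhd, -0.050 to 0.024 for Atp5g1 and -0.047 to 0.015 for Sdha. The cause of these changes was not tested.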
